A study of Homo sapiens with 20 samples.

Results

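The chromosome 5 regions are the 728 of 8286 ATACseq regions (8.79%) that the deposited tables place on chromosome 5 of GRCh38. They were taken by chromosome alone, and no measured value entered that choice. They are 200 to 1825 bp long (median 461.5 bp) and cover 376925 bp in all. By the GENCODE annotation 160 lie within 1 kb of a transcript start, 38 otherwise overlap an exon, 333 lie in introns and 197 between genes. The tables list no gene for 164 of them, 1 gene for 392 and more than 1 for 172, giving 503 listed genes, of which 389 are in the RNAseq tables.

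ATACseq (2 replicates per group, 8 libraries) and RNAseq (3 replicates per group, 12 libraries) were made from HL60 cells, a human promyelocytic leukaemia line. The 4 groups are Cas9 control cells and HK3-null cells, each given 1 µM all-trans retinoic acid (ATRA) or 0.01% DMSO for 36 h. Both kinds of cells carry a lentiCRISPRv2 vector with Cas9 and puromycin resistance, all HK3-null libraries bear 1 knockout label (KO-2G), and the knockout lines were grown from single cells, so line and genotype cannot be told apart. The replicates are called biological and nothing more is said of their cultures, so the p-values measure the spread between these samples, which may be technical.

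ATACseq counts where a transposase can insert into DNA, so its signal is high at open promoters and enhancers, and it also rises and falls with the number of DNA copies in the cell. Openness and copy number cannot be told apart from these tables. Chromosome 5 carries HK3, which encodes a hexokinase expressed mainly in myeloid cells, and the long arm holds many cytokine, receptor and leukaemia genes. ATRA drives promyelocytic cells towards granulocytes through nuclear retinoid receptors that bind DNA.

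The sequences below are shown because they lie at the targeted gene and at the regions with the largest rises and falls on this chromosome. The HK3 promoter is the RefSeq GRCh38.p14 sequence chr5:176899297-176899596, minus strand. The others are windows of 200 bases taken from near the middle of each region, GRCh38, plus strand. They lie at chr5:150904954-150905153 (IRGM and ZNF300), chr5:179060203-179060402 (ZNF354C), chr5:141397777-141397976 and chr5:141387528-141387727 (A and B of the PCDHG cluster), chr5:35785828-35786027 (SPEF2), chr5:963841-964040 (no listed gene), chr5:134545124-134545323 (JADE2) and chr5:132369943-132370142 (SLC22A5). Capitals mark matches, on either strand, to 5 short motifs: GAGGAA (the core bound by PU.1), TTGCNNA (like C/EBP sites), AGGTCA (a retinoid receptor half-site), TGANTCA (AP-1) and GGGCGG (a GC box). Windows with no capitals hold no match.
HK3 promoter: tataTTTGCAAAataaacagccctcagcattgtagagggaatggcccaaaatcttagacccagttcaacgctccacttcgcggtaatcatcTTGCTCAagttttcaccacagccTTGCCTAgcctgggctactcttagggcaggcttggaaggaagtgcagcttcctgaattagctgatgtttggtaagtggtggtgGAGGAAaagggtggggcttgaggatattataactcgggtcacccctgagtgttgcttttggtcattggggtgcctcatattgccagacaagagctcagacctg
IRGM and ZNF300 region: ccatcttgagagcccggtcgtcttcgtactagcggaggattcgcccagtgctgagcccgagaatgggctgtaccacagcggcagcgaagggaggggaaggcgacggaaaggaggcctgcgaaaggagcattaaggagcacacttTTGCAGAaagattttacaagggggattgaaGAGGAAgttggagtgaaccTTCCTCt
ZNF354C region: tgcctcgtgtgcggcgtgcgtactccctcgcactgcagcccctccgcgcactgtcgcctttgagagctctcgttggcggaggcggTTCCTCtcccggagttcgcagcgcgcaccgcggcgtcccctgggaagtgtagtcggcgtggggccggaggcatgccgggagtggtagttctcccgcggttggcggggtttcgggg
PCDHG region A: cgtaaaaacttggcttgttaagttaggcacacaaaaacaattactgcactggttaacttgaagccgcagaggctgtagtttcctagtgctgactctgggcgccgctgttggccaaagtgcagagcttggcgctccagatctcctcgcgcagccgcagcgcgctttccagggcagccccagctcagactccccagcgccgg
PCDHG region B: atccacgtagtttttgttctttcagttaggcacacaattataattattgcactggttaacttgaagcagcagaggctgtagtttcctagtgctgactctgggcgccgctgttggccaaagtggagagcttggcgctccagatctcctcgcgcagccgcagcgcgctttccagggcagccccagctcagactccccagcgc
SPEF2 region: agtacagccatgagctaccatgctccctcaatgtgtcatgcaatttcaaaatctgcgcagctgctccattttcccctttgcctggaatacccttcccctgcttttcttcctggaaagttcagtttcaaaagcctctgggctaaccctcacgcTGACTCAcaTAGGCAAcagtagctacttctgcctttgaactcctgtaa
region with no listed gene: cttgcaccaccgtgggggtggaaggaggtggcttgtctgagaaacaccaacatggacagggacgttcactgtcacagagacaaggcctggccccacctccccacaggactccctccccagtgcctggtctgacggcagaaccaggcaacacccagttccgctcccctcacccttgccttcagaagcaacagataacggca
JADE2 region: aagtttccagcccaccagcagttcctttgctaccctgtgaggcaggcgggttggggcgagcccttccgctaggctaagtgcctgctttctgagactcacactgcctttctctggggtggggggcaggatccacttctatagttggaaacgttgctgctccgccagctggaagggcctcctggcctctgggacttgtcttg
SLC22A5 region: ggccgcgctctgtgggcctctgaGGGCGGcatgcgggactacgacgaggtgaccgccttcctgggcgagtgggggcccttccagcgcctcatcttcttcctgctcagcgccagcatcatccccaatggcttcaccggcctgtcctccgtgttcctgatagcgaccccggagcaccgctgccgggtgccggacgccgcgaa

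The HK3 promoter held 1 GAGGAA and 4 TTGCNNA matches, with the overlapping ones counted separately. Of the 35116 RefSeq promoters of the same length, 27.9% held GAGGAA and 33.1% held TTGCNNA. In central windows of 200 bases over the 728 regions the shares were 38.9% for GAGGAA, 31.5% for TTGCNNA, 10.9% for AGGTCA, 9.34% for TGANTCA and 11.1% for GGGCGG. A match to TGANTCA was present in 10 of the 30 regions called higher for HK3-null in DMSO (33.3%) and in 6.59% of the 501 that were lower. The same shares were 43.3% and 38.9% for GAGGAA, 33.3% and 29.9% for TTGCNNA, 3.33% and 13.2% for GGGCGG, and 0 of 30 and 10.8% for AGGTCA. Both PCDHG windows share an identical run of 77 bases, longer than the reads of 42 bases. The study used only uniquely mapping ATACseq reads, so signal from such runs can be lost. These matches describe the letters only.

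Libraries labelled HK3-null did not have less HK3 RNA than the controls. In DMSO the Cas9 control libraries held 90, 65 and 105 normalized counts of HK3 and the libraries labelled HK3-null held 344, 302 and 346. All 3 labelled HK3-null were above all controls, by 1.96 ± 0.21 (log2, SE; limma adjusted p = 1.11e-05). In ATRA the counts were 1305, 1298 and 1850 in controls and 1384, 1285 and 1975 in libraries labelled HK3-null, and the groups overlapped (log2 difference 0.05 ± 0.21, limma adjusted p = 0.836). A count over a whole gene does not show the edited bases, so it does not check the edit. The paper reports insertions or deletions at the Cas9 cut site by sequencing of its knockout lines. It also reports HK3 protein by mass spectrometry in HL60 controls given vitamin D, and none in pooled HK3 knockout clones. The paper does not say which clone is KO-2G. HK3 lies on the minus strand at chr5:176880869-176899346, no region lists it, and the nearest region ends 35.3 kb away.

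The HL60 identity was checked by its markers. Summed RNA of 8 promyelocyte genes ran from 555983 to 837442 normalized counts per library, of which MPO alone held 440811 to 661371. Within this list CTSG was called lower in DMSO libraries labelled HK3-null (log2 difference -1.78) and AZU1 was lower without a call (-0.39). MPO, ELANE, PRTN3, SPI1, CD33 and MYB lay between -0.004 and 0.47, and none was called. The 4 T cell genes summed to at most 12 and 3 erythroid genes to at most 13. B cell genes summed to 46 to 110, megakaryocyte genes to 2 to 30 and epithelial genes to 11 to 56. Fibroblast collagens summed to 427 counts in Cas9 control DMSO replicate 1 and to 9 to 53 in the other libraries. The summed ATAC signal of Cas9 control ATRA replicate 2 was 244488, against 345345 to 390632 in the other libraries. Summed, the 5 ATRA response genes (ITGAM, CD38, TGM2, CYP26A1 and NCF1) rose from 67 to 96 counts to 11586 to 12670 in controls, and from 1027 to 1121 to 50201 to 58754 in libraries labelled HK3-null. TGM2 alone held 30084 to 39244 of the last counts. The log2 rise with ATRA was smaller in libraries labelled HK3-null than in controls for ITGAM (2.31 against 5.46), CD38 (5.23 against 10.12) and NCF1 (4.45 against 6.54). It was larger for TGM2 (12.51 against 8.55, limma adjusted p of the difference = 0.0281), which had 1 to 12 counts in DMSO. For CYP26A1 the rises were 12.46 and 11.16, and their difference was not called (limma adjusted p = 0.884). CYP26A1 had 0 or 1 count in DMSO. In ATRA it had 4, 3 and 1 in controls and 94, 59 and 32 in libraries labelled HK3-null. Its log2 rises therefore depend on the value written for 0 counts. In DMSO the means of ITGAM, CD38 and NCF1 were 25.7, 5 and 49 in controls and 350, 191 and 519 in the others.

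Across the chromosome, libraries labelled HK3-null had less signal than controls, with or without ATRA. In DMSO the median signal of the 728 regions was 49.1 and 49.4 in Cas9 controls and 15.4 and 14.5 in libraries labelled HK3-null. In ATRA it was 46.6 and 34.7 in controls and 10.4 and 12.2 in libraries labelled HK3-null. Both control libraries of each treatment were above both others. Chromosome 5 held 12.1% to 12.7% of the summed signal of the table in the 4 control libraries, against 4.44% and 4.41% (DMSO) and 3.49% and 3.59% (ATRA) in those labelled HK3-null.

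These falls have to be read against how the table was made. Every one of the 8286 regions differs between the genotypes in ATRA, by at least 1.65-fold where libraries labelled HK3-null are higher and by at least 2-fold where they are lower, so the ATRA contrast is a description and has no test. On it, 659 of the 728 regions (90.5%) were lower and 69 higher, while 45.1% of all regions were lower. No such limit shows in DMSO, where the smallest fold on the chromosome was 1.01. The DMSO libraries come from the same lines, though, and their tests below share the filter and the spread with the ATRA libraries. Agreement between the treatments is therefore not independent of the selection. Of the 659, 658 were also lower in DMSO, and 67 of the 69 were also higher. The median log2 difference on log2(signal + 1) was -1.59 in DMSO (interquartile range -2.26 to -1.06) and -1.77 in ATRA, beside 0.41 and 1.07 over all regions.

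With limma over the 6214 regions that passed the filter on mean signal, 565 of the 728 were tested in DMSO with an adjusted p under 0.05 and a change of at least 1.5-fold required. Of these, 501 were called lower (88.7%, beside 43.9% of all regions tested) and 30 higher (5.31%, beside 42.7%), and 34 were not called. Of the 163 untested regions, 133 had a lower and 30 a higher mean in libraries labelled HK3-null. Without any filter, 612 were called lower and 49 higher. Both libraries labelled HK3-null lay below both controls in 647 of the 728 regions, beside 44.6% of all regions, and above both in 61, beside 50.1%. Called falls had a median of -1.66 (range -7.33 to -0.64), 176 of them of at least 4-fold and 66 of at least 8-fold.

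The level relative to other autosomes separated the groups in both assays. The median on chromosome 5 minus the median on the autosomes other than 5, 6, 8, 13 and 15 was 0.95 and 0.80 (log2 of ATAC signal) in control DMSO libraries and -0.60 and -0.60 in DMSO libraries labelled HK3-null. For ATRA it was 0.79 and 0.87 in controls and -1.08 and -0.82 in the others. The RNA of the chromosome's genes, as the median deposited log2 value against the same autosomes, stood at 0.41 to 0.49 in the 6 control libraries and at -0.53 to -0.43 in the 6 labelled HK3-null. Chromosomes 13 and 15 had similar median ATAC differences in DMSO, -1.48 over 324 regions and -1.64 over 606. The autosomes named in the comparison above had 0.37, with a wide interquartile range of -1.78 to 1.48. Of their tested regions 43.9% were called lower and 41.0% higher. The chromosomes left out of that comparison were chosen with earlier results of these data known. After the chromosome's own median was subtracted from each library, an alternative chosen after seeing the data, 113 regions were called lower and 119 higher in DMSO.

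**Figure D1:**
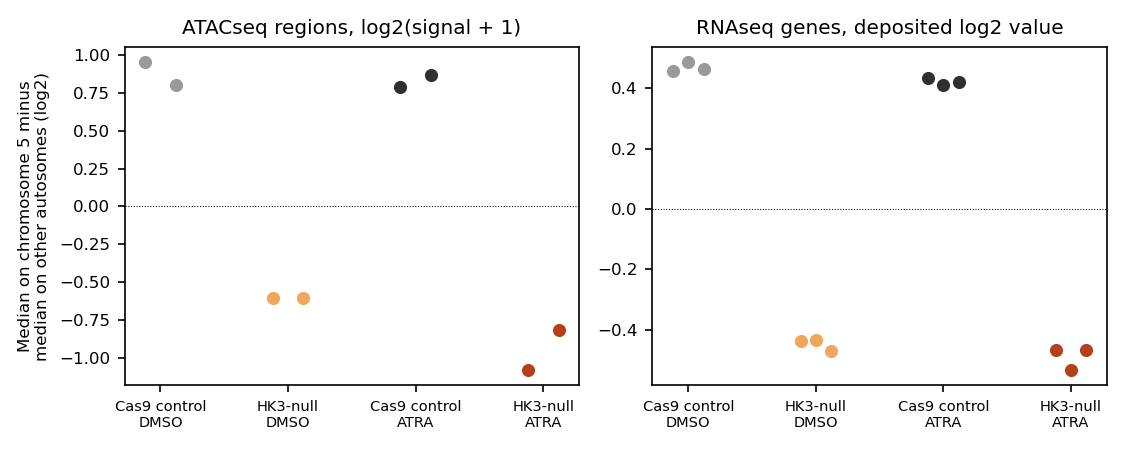
Median of chromosome 5 minus the median of the autosomes other than 5, 6, 8, 13 and 15 (log2), one point per library, for ATACseq regions (left) and RNAseq genes (right). All control libraries are above 0 (ATACseq 0.79 to 0.95) and all libraries labelled HK3-null are below it (ATACseq -1.08 to -0.60).

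The fall was present along the whole chromosome, and its size varied with position. In bins of 10 Mb the median difference in DMSO was below 0 in each of the 19 bins. It was -2.33 in the first 10 Mb (56 regions), -2.19 from 10 to 20 Mb and -2.10 from 20 to 30 Mb, the last over 9 regions. It was -0.88 from 40 to 50 Mb (11 regions), the smallest fall, and from 50 Mb to the end of the long arm it lay between -1.27 and -1.87. The short arm (156 regions, up to 48 Mb) had a median of -1.95 and the long arm (572 regions) one of -1.53. From 60 to 70 Mb all 28 regions were lower in ATRA, and all 16 tested there were called lower in DMSO.

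Among the 28 windows of 2 Mb with at least 10 regions, the lowest median was at 14 to 16 Mb, around TRIO, which encodes a guanine nucleotide exchange factor. Its 27 regions had a median difference of -3.85 in DMSO, and the 34 regions of 0 to 2 Mb, which list SLC12A7, NKD2 and LPCAT1 among others, had -2.57. These windows of 2 Mb were chosen after their values were seen. Of the 17 regions that list TRIO, 11 passed the filter and each was called lower. SLC12A7, a potassium and chloride cotransporter, is listed by 8 regions, of which 7 were called lower. Over the whole chromosome 88.7% of the tested regions were called lower, so these counts are near the general share.

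The RNA of the chromosome's genes was lower along both arms. Over the 582 tested genes placed on chromosome 5 the median log2 difference in DMSO was -0.75, on the long arm -0.78 and on the short arm -0.63. The lowest medians in bins with more than 1 gene were -1.13 (120 to 130 Mb), -1.09 (70 to 80 Mb) and -1.04 (60 to 70 Mb), and the highest was -0.43 (160 to 170 Mb). Chromosomes 13 and 15 had RNA medians of -0.57 and -0.94, and the autosomes other than 5, 6, 8, 13 and 15 had 0.01. In bulk cells, fewer cells that express a gene and less RNA per cell cannot be told apart.

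**Figure D2:**
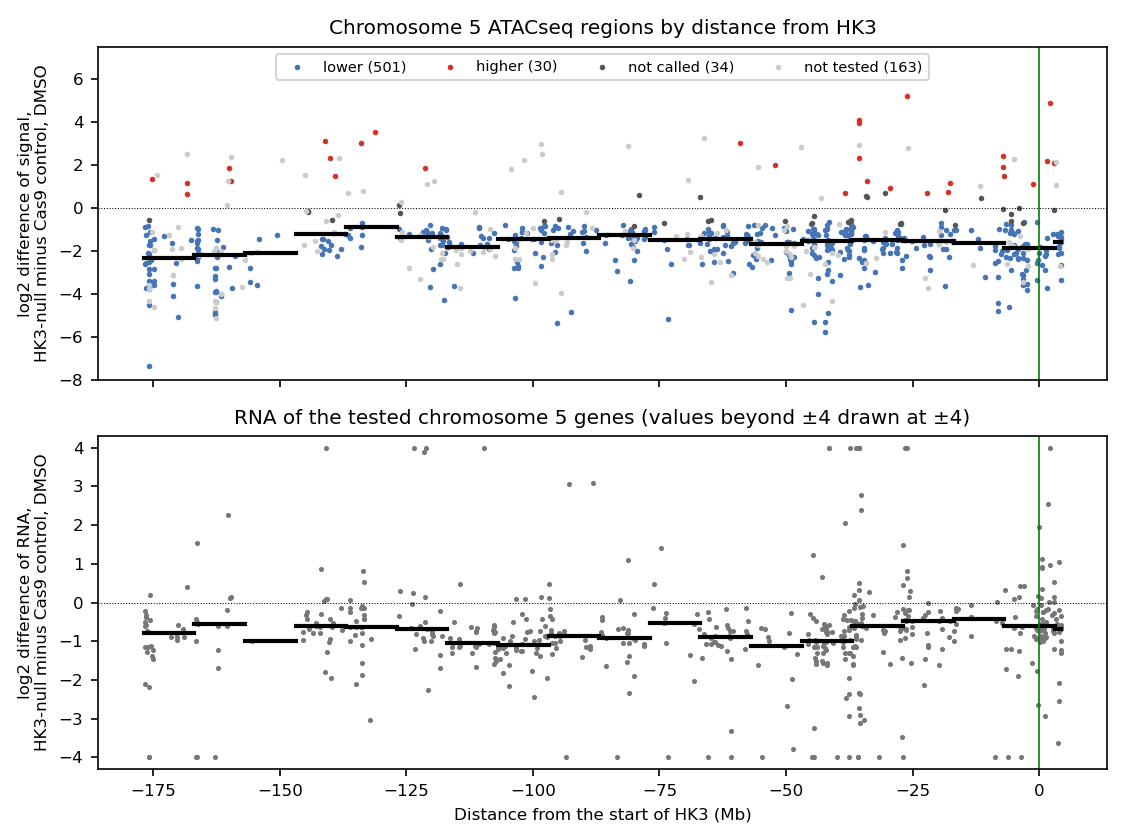
Log2 difference in DMSO between libraries labelled HK3-null and Cas9 controls, by distance from the start of HK3 (Mb, green line), for the 728 ATACseq regions (top, coloured by call) and for the RNA of 582 tested genes (bottom), with black bars for the medians of 10 Mb bins. Every ATACseq bin median is below 0, from -2.33 to -0.88, and the 30 regions called higher are spread over both arms.

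Around HK3 all 7 regions within 1 Mb were lower in libraries labelled HK3-null. UNC5A, a netrin receptor gene, has the nearest region, an intronic one at chr5:176844934-176845532, with a signal of 38.0 and 36.4 in control DMSO, 6.78 and 9.50 in DMSO labelled HK3-null, 25.6 and 13 in control ATRA, and 6.59 and 4.06 in ATRA labelled HK3-null. The genotypes did not overlap in DMSO (difference -2.08 ± 0.45, SE, limma adjusted p = 9.21e-05). They did not overlap in ATRA either, but the regions were selected on that difference. On the other side of HK3, the promoter region shared by ZNF346, an RNA-binding zinc finger gene, and FGFR4, a growth factor receptor gene, fell from 46.5 and 67.9 to 16.1 and 14.2 in DMSO (-1.83 ± 0.34, limma adjusted p = 1.45e-05). The calls at UNC5A and ZNF346 were lost once the chromosome median was subtracted.

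The largest fall near HK3 was at RNF44, which encodes a RING finger protein and whose start has 3 regions. At chr5:176529847-176530351 the signal was 126 and 153 in control DMSO and 10 and 16.1 in DMSO labelled HK3-null, a difference of -3.35 ± 0.39 (limma adjusted p = 2.93e-09). The second region, 1.4 kb on, fell by 2.54 ± 0.32 on the log2 scale. The third, at chr5:176541595-176541867, listed with the cadherin gene CDHR2, had 237 and 185 against 139 and 127, so the groups were apart but closer (-0.65 ± 0.28, limma adjusted p = 0.0298). That call was lost under centring on the autosomes (-0.48), with the replicate block (limma adjusted p = 0.057), and without control DMSO replicate 1 (-0.48) or either DMSO library labelled HK3-null.

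TSPAN17, a tetraspanin gene, had 58.4 and 49.3 in control DMSO and 7.27 and 11.7 in DMSO labelled HK3-null at a region in its last exon (-2.42 ± 0.33, limma adjusted p = 8.23e-08). At the start of FAM193B the values were 92.6 and 97.4 against 14.3 and 14.1 (-2.66 ± 0.35, limma adjusted p = 4.18e-08).

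RNA differences of the neighbouring genes were mostly short of the fold. Among 33 tested genes within 1 Mb, 26 had a lower mean in DMSO libraries labelled HK3-null (median -0.60, beside -0.75 over the chromosome). At a fold of at least 2, 1 was called lower and 2 were called higher. Over all 582 tested genes of the chromosome 29.7% were called lower and 4.81% higher, and over all genes tested 8.21% and 11.1%. The one called lower was TSPAN17, with 704, 557 and 569 counts in controls and 116, 106 and 73 in libraries labelled HK3-null (-2.65 ± 0.16, limma adjusted p = 1.47e-07). The higher ones were HK3 and DBN1, which encodes the actin-binding protein drebrin (1.12). RNF44 RNA had 5571 to 5804 counts in controls and 4989 to 5169 in libraries labelled HK3-null, a difference of -0.18 that did not reach the fold, and it turned to 0.61 once the chromosome median was subtracted.

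**Figure D3:**
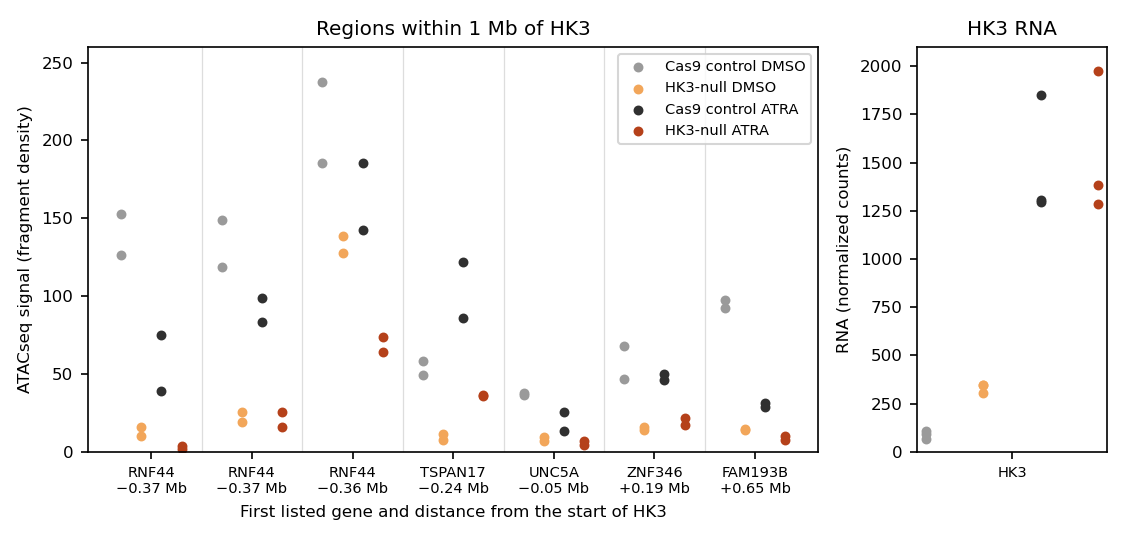
ATACseq signal of the 7 regions within 1 Mb of HK3 (left, first listed gene and distance from the start of HK3) and HK3 RNA in normalized counts (right), one point per library, coloured by group. In each region both libraries labelled HK3-null are below both controls of the same treatment, while HK3 RNA in DMSO is 302 to 346 against 65 to 105. The regions were selected on the difference in ATRA.

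The largest fall on the chromosome was at a region with no listed gene, chr5:963428-964455. Its signal was 613 and 598 in control DMSO, 3.00 and 2.55 in DMSO labelled HK3-null, 461 and 332 in control ATRA, and 5.07 and 2.48 in ATRA labelled HK3-null. The mean in DMSO was 218-fold lower (-7.33 ± 0.33 on the log2(signal + 1) scale, limma adjusted p = 1.04e-19). Its groups are far apart in DMSO and also in ATRA, on which the regions were selected. Its window is printed above.

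Several promoters were at or near 0 in libraries labelled HK3-null. SLC22A5, which encodes the carnitine transporter, had 61.2 and 73.2 in control DMSO and 0 and 1.89 in DMSO labelled HK3-null at chr5:132369433-132370317 (-5.32 ± 0.48, limma adjusted p = 1.23e-11). In DMSO its RNA was 173, 127 and 189 counts in controls and 0 in all 3 libraries labelled HK3-null. That is at least 54.3-fold lower against a floor of 3 counts per library. In ATRA its RNA was 283, 251 and 279 counts in controls and 13, 15 and 23 in libraries labelled HK3-null. The promoter of NUDT12, an NAD(H) pyrophosphatase gene, had 50.1 and 53.1 against 0 and 1.20 (-5.15 ± 0.51, limma adjusted p = 1.07e-10), with 302, 320 and 329 RNA counts in controls and 1, 1 and 0 in the others. Both assays were low at these promoters in every library labelled HK3-null in DMSO.

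Other deep falls came with RNA differences of smaller size. JADE2, a PHD finger gene of histone acetylation complexes, has a region at chr5:134544942-134545506 with 86.4 and 84.6 in control DMSO and 0 and 1.53 in DMSO labelled HK3-null (-5.77 ± 0.48, limma adjusted p = 2.03e-12). Its RNA was 1589, 1621 and 1686 against 1007, 1132 and 1082 counts (-0.61 ± 0.07), apart but short of the fold. An intron region of SSBP2, a gene for a single-stranded DNA-binding protein, had 65.2 and 62.6 against 1.56 and 0 (-5.34 ± 0.60, limma adjusted p = 1.62e-09), and SSBP2 RNA fell by 1.17 ± 0.10 on the log2 scale (limma adjusted p = 1.40e-06), a call that was lost once the chromosome median was subtracted. PAPD7, a noncanonical poly(A) polymerase gene, had 87.6 and 105 against 1.75 and 2 in an intron (-5.08 ± 0.45, limma adjusted p = 7.05e-12), with RNA at -0.57, short of the fold. The RNA values of JADE2 and PAPD7 turned to 0.18 and 0.22 once the chromosome median was subtracted.

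Regions with a DMSO signal below 3 in both libraries labelled HK3-null and above 30 in both controls, limits chosen after the values were seen, numbered 24 of 728 (3.30%) beside 103 of all 8286 (1.24%). Of the 24, 8 lie between 14 and 16 Mb, 7 of them listing TRIO, and 4 between 0 and 2 Mb. With the genotypes exchanged, 3 regions of chromosome 5 met these limits beside 110 of all regions. TRIO itself had 93.1 and 104 against 3.50 and 1.20 at chr5:14173930-14174641 (-4.98 ± 0.41, limma adjusted p = 1.65e-12). TRIO RNA was 1418, 1404 and 1401 counts in controls and 2, 3 and 7 in libraries labelled HK3-null.

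RNA was lost in the same sense for 8 chromosome 5 genes, defined as at least 50 counts in every control and at most 10 in every library labelled HK3-null in DMSO. They are 8 of 68 such genes in the table, and again the limits were chosen after the values were seen. Besides TRIO, SLC22A5 and NUDT12 they include NKD2, an antagonist of Wnt signalling (2296, 2110 and 2156 against 1, 1 and 2), and LOC100506688, which shares a region with it (456, 532 and 583 against 0 in all, at least 175-fold lower). RANBP17, a nuclear transport receptor gene, had 287, 267 and 273 against 0 in all, at least 91.9-fold lower. WWC1, PRELID2 and these 6 make up the 8. In the reverse sense 4 genes of the chromosome were gained (CD14, FST, ZNF300 and ZNF354C), of 113 in the table. Chromosome 5 holds 582 of the 13256 genes tested, and the gained count is near that share.

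**Figure D4:**
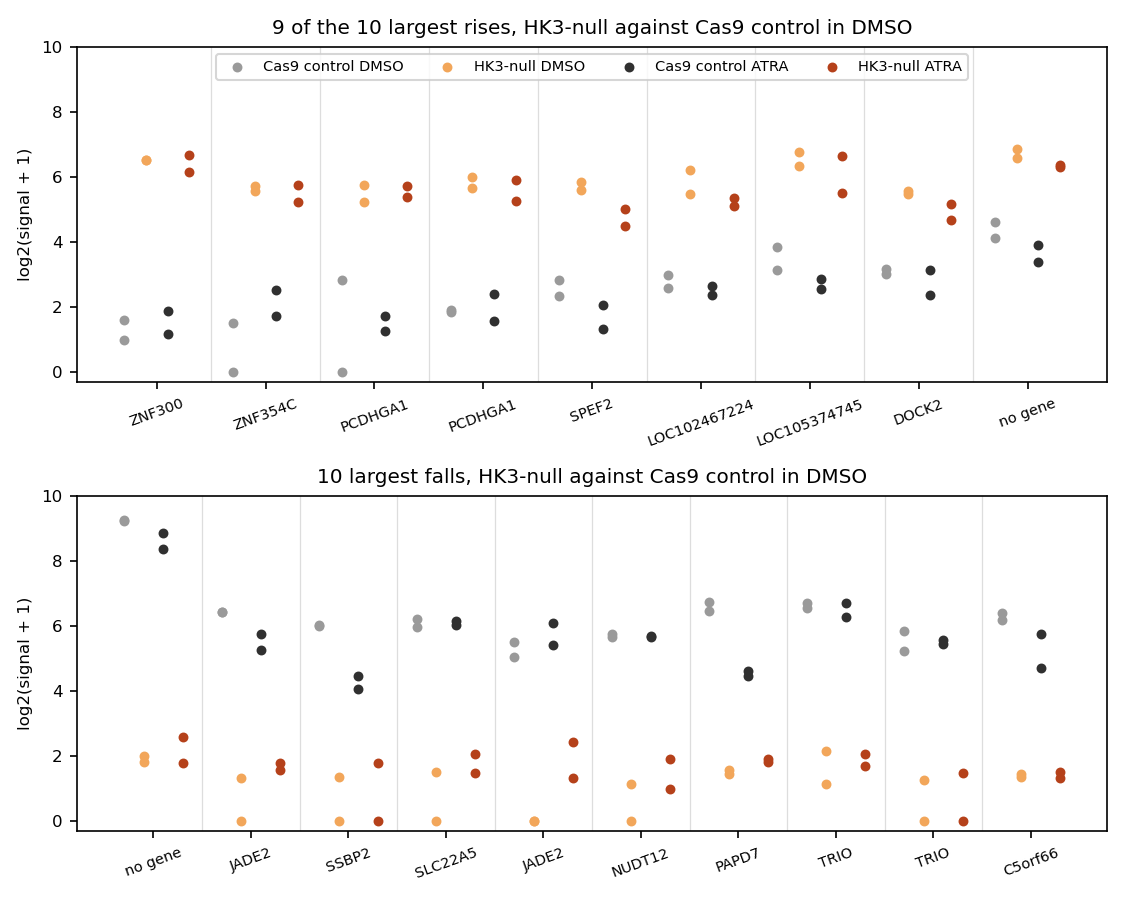
Log2(signal + 1) of 9 of the 10 regions with the largest called rises (top) and the 10 with the largest called falls (bottom) in DMSO, one point per library, labelled with a listed gene. The rises have control DMSO signals of 0 to 23.6 and the falls have DMSO signals of 0 to 3.50 in libraries labelled HK3-null.

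Against the general fall, 30 of the 565 tested regions were called higher, with a median of 1.89 (range 0.67 to 5.23). The largest rise was at the promoter of ZNF300, a KRAB zinc finger repressor gene, next to the autophagy gene IRGM, at chr5:150904698-150905319. Signal there was 1.00 and 2.05 in control DMSO, 91.5 and 91.9 in DMSO labelled HK3-null, 2.67 and 1.29 in control ATRA, and 70.8 and 101 in ATRA labelled HK3-null (5.23 ± 0.43, limma adjusted p = 1.34e-12). Its RNA moved with it, from 5, 0 and 0 to 685, 676 and 593 counts (limma adjusted p = 0.00184).

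The promoter of ZNF354C, another KRAB zinc finger gene, rose from 1.89 and 0 to 52.2 and 46.2 (4.88 ± 0.51, limma adjusted p = 3.09e-10). Its RNA was 4, 0 and 1 in controls and 159, 141 and 122 in libraries labelled HK3-null (limma adjusted p = 0.0239), a call that was lost without control replicate 2 or any 1 of the DMSO libraries labelled HK3-null. Neither library of one genotype came near the other genotype in ATAC or RNA.

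The protocadherin gamma cluster, whose genes encode neuronal adhesion proteins from alternative first exons, is listed by 6 regions, of which 3 were called higher and 2 lower. Those called higher span 28.2 kb. At chr5:141397675-141398159 the signal was 6.21 and 0 in control DMSO and 53.6 and 36.8 in DMSO labelled HK3-null (4.08 ± 0.58, limma adjusted p = 1.42e-07), and at chr5:141387455-141387923 it was 2.60 and 2.80 against 49.9 and 63.4 (3.95 ± 0.44, limma adjusted p = 1.49e-09). PCDHGB4 RNA was 5, 0 and 0 against 41, 29 and 43 counts, and PCDHGB5 RNA 6, 0 and 0 against 30, 22 and 28. Both RNA calls were lost without control replicate 2 or 3, and counts within this family are uncertain because its genes share exons.

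Rises without a called rise in RNA were found as well. DOCK2, which activates Rac in leukocytes, is listed by 4 regions, of which 3 were called higher. The intron region at chr5:169801246-169801575 had 7.09 and 8 in control DMSO and 43.9 and 47.0 in DMSO labelled HK3-null (2.44 ± 0.41, limma adjusted p = 3.15e-06). DOCK2 RNA had 13365 to 14509 counts in controls and 9638 to 10673 in the others (-0.43, short of the fold, and 0.36 once the chromosome median was subtracted). An intron region of SPEF2, a sperm flagellar gene, rose from 4.12 and 6.15 to 56.4 and 47.7 (3.13 ± 0.46, limma adjusted p = 2.58e-07), while its mean RNA was 255 and 263 counts.

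Smaller called rises included an intron of MYO10, an unconventional myosin gene (1.87), and a region near EGR1, an early growth response factor (0.72). Their RNA rose too. MYO10 had 303, 272 and 261 against 1343, 1471 and 1188 counts (2.26 ± 0.09, limma adjusted p = 4.71e-09), and EGR1 37, 31 and 36 against 197, 129 and 117 (2.06 ± 0.24, limma adjusted p = 2.46e-05). Of the 30 regions, 10 lie within 1 kb of a transcript start, 11 in introns, 8 between genes and 1 in an exon, and 2 list no gene.

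The RNA of the genes listed by the regions fell on balance. Of 219 tested genes, 80 were called lower in DMSO at a fold of at least 2 (36.5%, beside 8.21% of all genes tested) and 13 higher (5.94%, beside 11.1%), with a median of -0.86 against 0.00 over all genes. In ATRA 88 were lower (40.2%, beside 9.92%) and 15 higher (6.85%, beside 11.4%), with a median of -0.85. Genes of the chromosome that no region lists fell as well, 93 of 363 (25.6%) with a median of -0.69. After the chromosome median was subtracted, the listed genes split into 34 lower and 25 higher in DMSO, and 31 and 26 in ATRA.

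RNA and ATAC directions were compared per gene. Of 172 tested genes whose called regions were all lower in DMSO, 74 were called lower in RNA, 6 higher and 92 not. Of 12 whose called regions were all higher, 3 were higher in RNA and 9 not called. The 6 with lower regions and higher RNA were CD74, EDIL3, IL31RA, ROPN1L, TIFAB and PCDHGB6. CD74, the invariant chain of antigen presentation, had 18, 1 and 2 counts in controls and 522, 583 and 512 in libraries labelled HK3-null (7.35 ± 0.77, limma adjusted p = 1.04e-05), while its region fell by 1.48 on the log2 scale. EDIL3, a secreted integrin ligand gene, had 48, 14 and 14 against 210, 164 and 157 (3.06 ± 0.40, limma adjusted p = 6.04e-05). The highest control value of both genes was in replicate 1, the library with 427 collagen counts, whose part was not tested.

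Lists of chromosome 5 genes by function gave the following counts in DMSO. Over all 582 tested genes of the chromosome, 173 were lower (29.7%) and 28 higher (4.81%), and the shares in several lists are near these. In respiration and metabolism 7 of 14 tested genes were lower (median -1.0) and the other 7 were not called. UQCRQ, a complex III subunit, had 5132 to 5745 counts in controls and 1810 to 1841 in libraries labelled HK3-null (-1.59 ± 0.08, limma adjusted p = 2.08e-08), and COX7C, a complex IV subunit, 11159 to 12531 against 4479 to 4580 (-1.41 ± 0.07, limma adjusted p = 2.82e-08). In DNA repair and cell cycle 7 of 23 were lower and the rest not called (median -0.63), among them the mismatch repair gene MSH3 (-1.33) and SKP2, an F-box protein that targets cell cycle inhibitors (-1.27). The calls of UQCRQ, COX7C, MSH3 and SKP2 were lost once the chromosome median was subtracted.

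Among 18 tested genes studied in 5q deletion and myeloid leukaemia, 5 were lower and 2 higher (median -0.80). HSPA9, a mitochondrial chaperone, had 28118 to 31490 counts in controls and 10329 to 11560 in the others (-1.45 ± 0.10, limma adjusted p = 4.70e-07, with the call lost once the chromosome median was subtracted), and EGR1 was one of those higher. In myeloid and leukocyte function 4 of 21 were higher and 1 lower (median -0.43). CD14, the monocyte receptor for lipopolysaccharide, had 3, 4 and 2 against 125, 124 and 116 (5.40 ± 0.45, limma adjusted p = 1.52e-06), and the receptor CSF1R 31, 49 and 40 against 109, 112 and 111 (1.49 ± 0.26, limma adjusted p = 4.84e-04). Cytokines and receptors had 2 higher and 4 lower of 9 (median -0.68), retinoid-linked and differentiation factors 3 higher and 4 lower of 11 (-0.45), and cell death and kinase signalling 2 lower of 14 (-0.74).

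ATRA effects were measured within each genotype. They share the ATRA libraries on which the regions were selected. In Cas9 controls 75 of the 565 tested regions were called lower in ATRA (13.3%, beside 15.6% of all regions) and 7 higher (1.24%, beside 2.54%). In libraries labelled HK3-null 90 were lower (15.9%, beside 11.8%) and 14 higher (2.48%, beside 5.04%). Both genotypes shared 40 regions that fell and 4 that rose. These splits depended on scaling. Quantile normalization gave 54 lower and 31 higher in controls and 64 and 27 in libraries labelled HK3-null, and centring on the autosomes gave 55 and 15 in controls. Subtracting the chromosome median gave 48 lower and 20 higher in controls and 49 and 40 in the others. The number called in controls was 31 without ATRA replicate 2, 45 without DMSO replicate 1 and 35 without DMSO replicate 2, and in the others 43 without DMSO replicate 1 and 56 without DMSO replicate 2.

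The largest fall in libraries labelled HK3-null was at the start of MZB1, an endoplasmic reticulum protein of antibody-secreting cells, a region that also lists SLC23A1, PROB1 and SPATA24. At chr5:139388312-139388906 the signal was 329 and 371 in DMSO and 100 and 62.5 in ATRA in controls (-2.13 ± 0.32, limma adjusted p = 9.67e-06), and 73.2 and 78.9 against 5.47 and 11.5 in libraries labelled HK3-null (-3.10 ± 0.32, limma adjusted p = 8.00e-09). MZB1 RNA fell from 3258, 3392 and 3535 to 772, 640 and 548 counts in controls and from 457, 459 and 413 to 56, 37 and 21 in the others (-2.39 and -3.65). Both readouts fell in every library of both genotypes.

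Rises with ATRA were fewer. SQSTM1, the autophagy receptor p62, had a 3' region (chr5:179836663-179837061) at 7.15 and 14.9 in DMSO and 68.0 and 38.6 in ATRA in controls (2.20 ± 0.42, limma adjusted p = 2.09e-04), and at 11.3 and 8.31 against 21.2 and 14.9 in libraries labelled HK3-null (0.81 ± 0.42, limma adjusted p = 0.193). The region at C5orf56, next to the interferon factor gene IRF1, rose from 37.1 and 48.1 to 108 and 95.2 in controls (1.25 ± 0.31, limma adjusted p = 0.00419) and from 18.2 and 19.9 to 36.0 and 44.6 in the others (1.03 ± 0.31, limma adjusted p = 0.0193). The control call was lost without DMSO replicate 1. IRF1 RNA rose from 759 to 881 counts to 4294 to 5082 in controls and from 337 to 406 to 2667 to 3348 in the others (2.53 and 3.00).

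The TSPAN17 region near HK3 rose in both genotypes, from 58.4 and 49.3 to 122 and 85.6 in controls (0.92 ± 0.33, limma adjusted p = 0.0485) and from 7.27 and 11.7 to 36.3 and 36.1 in libraries labelled HK3-null (1.86 ± 0.33, limma adjusted p = 9.02e-05). A called rise at chr5:97924075-97924455 rested on 1 library, with 71.8 in ATRA replicate 1 labelled HK3-null, 14.8 in replicate 2, and 0.50 (log2, limma adjusted p = 0.724) without replicate 1. Another called rise, at chr5:109985915-109986296, had 68.8 in the same replicate 1 and 15.2 in replicate 2, against 14 and 9.33 in DMSO (1.43 ± 0.49, limma adjusted p = 0.0404).

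The RNA of the listed genes changed with ATRA in both directions. In controls 12 of 219 were higher with ATRA (5.48%, beside 6.84% of all genes) and 7 lower (3.20%, beside 2.78%), and in libraries labelled HK3-null 22 were higher (10%, beside 8.06%) and 20 lower (9.13%, beside 6.05%). KCNN2, a calcium-activated potassium channel gene, fell from 617 to 785 counts to 250 to 329 in controls and from 301 to 347 to 97 to 112 in the others. FAM134B, an endoplasmic reticulum autophagy receptor gene, rose from 33 to 40 counts to 85 to 109 in controls and from 27 to 40 to 184 to 293 in the others.

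**Figure D5:**
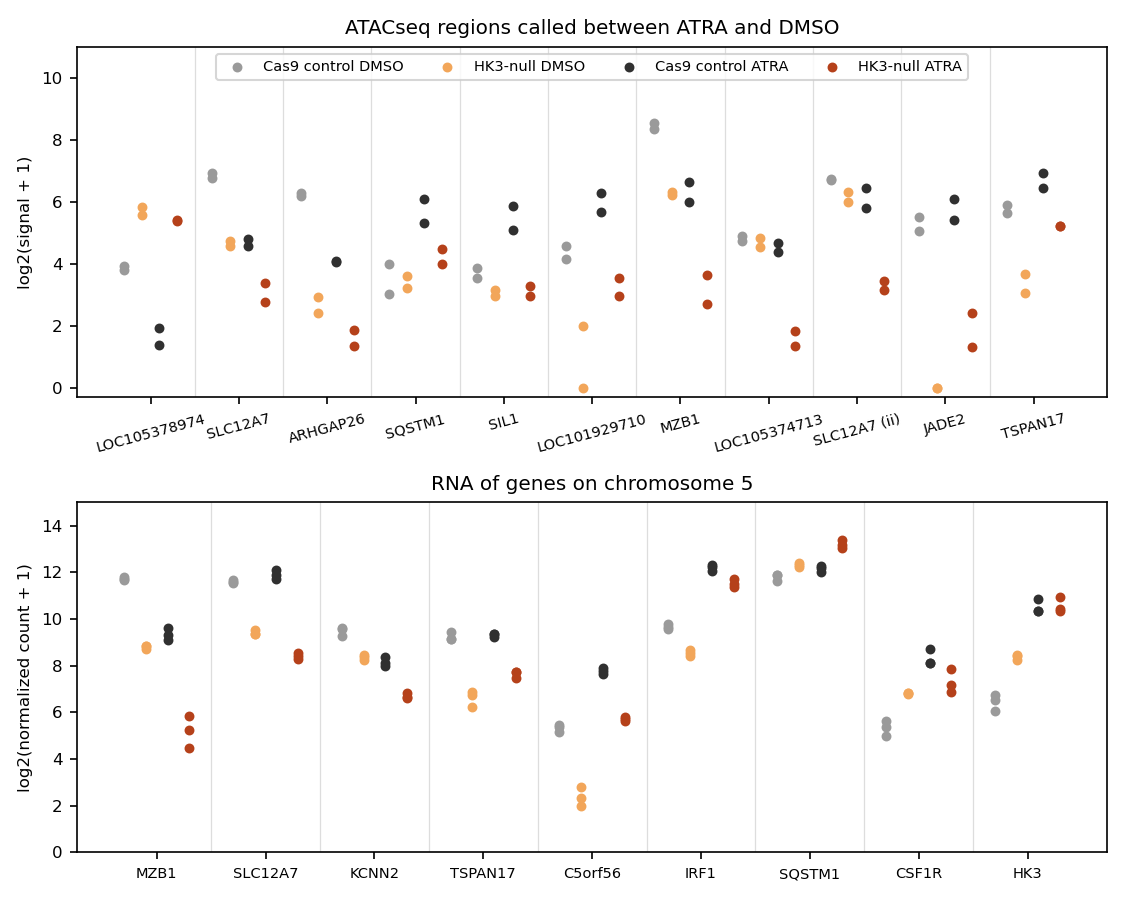
Log2(signal + 1) of 11 regions, the largest called falls and rises with ATRA in each genotype (top) and log2(normalized count + 1) of 9 chromosome 5 genes (bottom), one point per library, coloured by group. MZB1 falls with ATRA in both assays, IRF1 RNA rises, and the regions SLC12A7 (ii) and LOC105374713 are low in the ATRA libraries labelled HK3-null (8 and 9.88, and 2.57 and 1.56).

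The difference between the genotypes in their ATRA effect was tested as an interaction. The ATRA difference on which the regions were selected is one part of it, so the region values below are not independent of that selection. For ATACseq, limma called 2 of 565 regions lower (0.354%, beside 0.0966% of all regions) and 0 higher (beside 0.177%), while 20 were lower and 23 higher at an unadjusted p under 0.05. An intron region of SLC12A7 at chr5:1105436-1105965 had 104 and 106 in control DMSO, 79.3 and 63.4 in DMSO labelled HK3-null, 86.1 and 55.4 in control ATRA, and 8 and 9.88 in ATRA labelled HK3-null (interaction -2.26 ± 0.45, limma adjusted p = 0.0148). The region at chr5:32505340-32505767, listed with LOC105374713, had 28.6 and 25.7, then 22.3 and 27.6, 24.4 and 19.9, and 2.57 and 1.56 in the same order (-2.81 ± 0.60, limma adjusted p = 0.0242). In both, the ATRA libraries labelled HK3-null are below the other 6. No region was called without any 1 of the 4 DMSO libraries or control ATRA replicate 2, by limma.

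RNA gave 14 listed genes with a higher and 10 with a lower interaction (6.39% and 4.57%, beside 4.48% and 4.64% of all genes), and 29 and 18 with the replicate block. SLC12A7 RNA fell together with its region, at 2933 to 3238 in control DMSO, 647 to 734 in DMSO labelled HK3-null, 3328 to 4382 in control ATRA and 307 to 371 in ATRA labelled HK3-null (-1.31 ± 0.15, limma adjusted p = 2.58e-04). GLRX and CYSTM1, which encode glutaredoxin and a small membrane protein, had interactions of 1.07 and 1.21. The interaction of SLC22A5 (13.26) depends on the value written for its 0 counts in DMSO.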

How the data were processed

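The authors deposited ATACseq signal per region (fragment density in 32 bp bins, reads of 42 bases extended to 200 bp) and RNAseq log2 values. The deposited log2 values are whole-number counts already scaled by the authors, with 0 written as log2 of 0.001, and no gene-length scaling is visible. Depth before scaling is unknown. For ATACseq the paper gives, as its default, random sampling of every library down to the tag number of the smallest. Scaled totals were 29053834 to 31548188 per library. The submitters' processing notes name DESeq2, MACS2 and GRCh38, and the RNAseq aligner is not given in the sources used here. Of the RNAseq rows, 330 named no gene (at most 0.00926% of counts) and were left out.

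limma 3.58.1 (R 4.3.3) was fitted to all 4 groups with Benjamini-Hochberg adjustment. ATACseq used log2(signal + 1), which understates changes of low regions, and the 6214 regions above the 25th percentile of mean signal, at adjusted p under 0.05 and 1.5-fold. RNAseq used 13256 genes with a group mean log2 above 3, at adjusted p under 0.05 and 2-fold. Interactions had no fold limit. Region starts were taken as counted from 1. Named regions were all 7 within 1 Mb of HK3 and the largest called changes of each contrast, with their listed genes, plus genes of the lists. Members and lists were chosen with earlier results of these data known. RNAseq replicate numbers paired the libraries: same-number correlations of deviations were 0.178 to 0.631 over 10667 genes. The main fits leave this pairing out, and results named as with the replicate block include it. Values of some single regions and genes are not reported here.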

Additional observations from a re-analysis of the deposited data

Results flagged for a closer look

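The results here are those for which the ATRA effect differed between the genotypes in the limma interaction test. No cause was tested, and the groups of 2 and 3 libraries are too small for a test of single outlying libraries. Among regions these were the SLC12A7 intron region (-2.26) and the region listed with LOC105374713 (-2.81), both from a table selected on the ATRA difference that enters this test. Among the named genes the RNA interactions were -2.53 for CSF1R, 1.38 for FAM134B, -1.90 for HK3, -0.38 for JADE2, -1.31 for SLC12A7, 13.26 for SLC22A5, -0.92 for SPEF2, 0.52 for SQSTM1 and 0.99 for TSPAN17. In all, 24 genes listed by the regions were called. CSF1R RNA rose with ATRA from 31, 49 and 40 to 279, 278 and 422 counts in controls, and had 109, 112 and 111 against 143, 116 and 228 in libraries labelled HK3-null.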

How the results depend on the processing

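Alternatives changed 1 choice at a time, except that the unadjusted p for RNA came with a lower fold limit. Subtracting the chromosome 5 median and the crossed block were chosen after seeing the data. With the chromosome median subtracted, the regions called in DMSO went from 531 to 232 and the interaction regions from 2 to 7, and the listed genes called in RNA went from 93 to 59 in DMSO and from 103 to 57 in ATRA. With a pseudocount of 5 the interaction gave 6 regions. The median regional difference in DMSO of -1.59 became -1.37 with a pseudocount of 5 and -1.41 when centred on autosomes. An unadjusted p with 1.5-fold gave 151 listed genes in DMSO, 51 (from 19) for ATRA in controls and 71 (from 42) for ATRA in libraries labelled HK3-null. The RNA interaction gave 14 genes without the filter and 47 with the replicate block, against 24. ATRA calls in libraries labelled HK3-null were 68, against 104, when only their 4 libraries entered.

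Leaving out 1 library gave 462 to 536 regions in DMSO, 31 to 110 for ATRA in controls (from 82), 43 to 114 for ATRA in libraries labelled HK3-null and 0 to 5 for the interaction by limma (24 to 88 at an unadjusted p under 0.05), and 13 to 23 genes for the RNA interaction, 13 without ATRA replicate 2 labelled HK3-null.

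Signs turned with the chromosome median subtracted for the region at 176541595 (1.01) and the DMSO RNA of ARHGAP26 (0.13), C5orf45 (0.0039), DOCK2 (0.36), FAM193B (0.084), JADE2 (0.18), PAPD7 (0.22), PROB1 (0.58), RNF44 (0.61), SIL1 (0.33) and ZNF346 (0.12). PROB1 ranged from -0.73 to 0.10 with 1 library left out, turning without control DMSO replicate 1 (0.10) or DMSO replicate 1 labelled HK3-null (0.019), SPEF2 under quantile normalization (-0.086) or without DMSO replicate 3 labelled HK3-null (-0.0034), and HK3 in ATRA without control replicate 1 (-0.028) or 2 (-0.032) or replicate 3 labelled HK3-null (-0.13). The cause was not tested.

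Apart from the interaction count, the replicate block changed no call among the RNA results of the named genes and left the other RNA counts within 1.5 times. ATACseq numbers did not pair the libraries (same-number correlations -0.209 to 0.054), and the block gave 522, 77, 100 and 2 regions for DMSO, ATRA in controls, ATRA in libraries labelled HK3-null and the interaction. Crossing the control pairs gave 108 for ATRA in controls. With 2 ATACseq libraries per group, precision is limited, and depth before sampling or scaling is unknown in both assays.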

Other observations

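In ATRA replicate 1 labelled HK3-null, 8 chromosome 5 regions had a signal above 20 and at least 3 times that of replicate 2, limits chosen after the values were seen, while 4 regions had the reverse. The 8 are 380 or 381 bp long, a length that 14 of the 728 regions have, and 5 of them list no gene. The others list PDZD2, PARP8 and FSTL4. The PARP8 region had 61.2 in replicate 1 and 8.67 in replicate 2.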
